A study of Rattus norvegicus with 196 samples.

Results

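The genes Napb, Lrrtm2 and Slc6a7, all with roles at the synapse, were followed across the rat brain as 3 transcripts of the 29188 that were counted. They were picked by name from the study's list of transcripts that it called changed by fluoxetine in the brain, where they stand as ENSRNOT00000006329 (Napb), ENSRNOT00000075420 (Lrrtm2) and ENSRNOT00000025209 (Slc6a7). The comparison of FT with Sham therefore chose them, and their FT to Sham differences are given here as a description with no test. Their distribution over brain regions in Sham rats did not enter that choice and was tested.

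RNA from frozen brain punches was sequenced for 196 samples, 98 from rats given fluoxetine (FT) and 98 from rats given water (Sham). All were male Long-Evans rats, 2 months old when treatment began, and FT rats drank fluoxetine, a blocker of serotonin reuptake, at 18 mg/kg for 6 weeks. Each sample pools punches of 1 region from several animals, so that the spread between samples is a spread between pools, and the pools carry the replicate numbers 1, 3, 4 and 5. The 25 regions span cortex (prelimbic PLC, infralimbic ILC, cingulate CGC and InsularCortex), accumbens (NaCshell and NaCcore), septum (lateral LS and medial MS), BNST, amygdala (basolateral BLA and centromedial CMA), dentate gyrus (dorDG and venDG), thalamus and habenula (MDT and HB), hypothalamus (preoptic MPOA, lateral LH, ventromedial VMH and arcuate Arc), PVN, and midbrain and brainstem (VTA, PAG, Raphe, locus coeruleus LC and SNT, the solitary nucleus). MPOA has FT samples of replicates 4 and 5 only, and Arc has Sham samples of replicates 4 and 5 only.

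Napb encodes beta-SNAP, a brain form of the adaptor that brings the ATPase NSF to used SNARE complexes, so that they are pulled apart and the vesicle fusion machinery can act again. Lrrtm2 encodes a leucine-rich repeat protein of the postsynaptic membrane of excitatory synapses, which binds presynaptic neurexins and helps to hold AMPA-type glutamate receptors in place. Slc6a7 encodes PROT, the high-affinity L-proline transporter of the brain, found on glutamatergic nerve endings. The family of Slc6a7 also holds the serotonin transporter, the target of fluoxetine.

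The sequences in front of the 3 genes are shown to let their promoters be compared, since the same contrast picked all 3. They are the 250 bases before the RefSeq start of each gene in the GRCr8 build, all on the minus strand, at chr3:156632419-156632668 for Napb, chr18:27096968-27097217 for Lrrtm2 and chr18:56737703-56737952 for Slc6a7. The counts were made on the rn5 build, so the start sites were not checked against the counted transcripts. Capitals mark matches on either strand to the cAMP response element TGACGTCA, the GC box GGGCGG, the TATA box TATAAA and the box CCAAT, of which no matches overlap.
Napb: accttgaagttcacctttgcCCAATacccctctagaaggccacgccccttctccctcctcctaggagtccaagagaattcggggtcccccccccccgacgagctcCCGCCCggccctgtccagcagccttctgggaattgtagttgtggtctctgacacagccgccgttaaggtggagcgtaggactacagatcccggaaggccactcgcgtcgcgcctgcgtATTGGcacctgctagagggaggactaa
Lrrtm2: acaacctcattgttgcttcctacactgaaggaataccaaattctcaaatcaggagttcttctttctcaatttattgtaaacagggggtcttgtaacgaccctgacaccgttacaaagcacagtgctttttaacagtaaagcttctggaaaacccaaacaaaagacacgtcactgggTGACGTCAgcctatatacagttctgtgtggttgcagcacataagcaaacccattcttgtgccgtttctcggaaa
Slc6a7: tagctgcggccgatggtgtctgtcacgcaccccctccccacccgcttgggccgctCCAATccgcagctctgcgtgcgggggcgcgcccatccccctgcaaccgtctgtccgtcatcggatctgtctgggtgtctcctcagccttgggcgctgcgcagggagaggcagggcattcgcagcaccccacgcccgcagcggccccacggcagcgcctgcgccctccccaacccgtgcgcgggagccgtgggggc
None of the motifs searched was in all 3 windows. Lrrtm2 holds the palindrome TGACGTCA from 74 to 67 bases before its start, which 1.59% of the 33469 promoter windows in the RefSeq table hold on either strand. CCAAT stands in Napb on both strands and in Slc6a7 once, and 34.0% of all windows hold it. The GC box is in Napb alone, on the opposite strand, against 30.5% of all windows. The exact letters TATAAA are in none of the 3, against 12.9%, and other forms of the TATA box were not searched. TGACGTCA was chosen after the sequences had been seen. Base composition also set the 3 apart, with 61.2% G and C in Napb, 42.4% in Lrrtm2 and 73.2% in Slc6a7, where the median window had 51.2%.

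Libraries differed by replicate number in both treatments. The median number of reads on transcripts was lowest in replicate 3, at 5759060 in Sham and 6733740 in FT, where the 50 most counted transcripts also took the largest share of reads, 68.6% and 67.7%. In replicates 4 and 5 that share lay between 28.2% and 30.9% over both treatments. Of 183 libraries compared with the average deviation of each number in the other regions, 168 matched their own number best. Among the 15 that did not were the FT and Sham libraries numbered 4 and 5 of Raphe and of LC, each of which matched the other of these numbers, and the FT and Sham libraries numbered 4 of SNT, which matched 5. The Sham library of SNT replicate 3 held 4586 reads and was left out, as was the CGC pair of replicate 1. The Sham libraries of ILC replicate 3, with 543403 reads, and VTA replicate 1, with 2041893 reads, were the shallowest kept, and in Sham ILC replicate 1 the 50 most counted transcripts took 82.9% of reads. Results in Sham are given with and without these 3 libraries and with and without Raphe, LC and SNT where that changed a call.

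Reads per library were moderate to few. The median over 196 libraries was 110.5 reads for Napb, 94.0 for Lrrtm2 and 46.5 for Slc6a7. Levels are in CPM, the counts scaled to library size with TMM normalization, given as mean ± SD with n = 4 unless stated. They are compared within a transcript only, because transcript lengths were not used here.

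**Figure D1:**
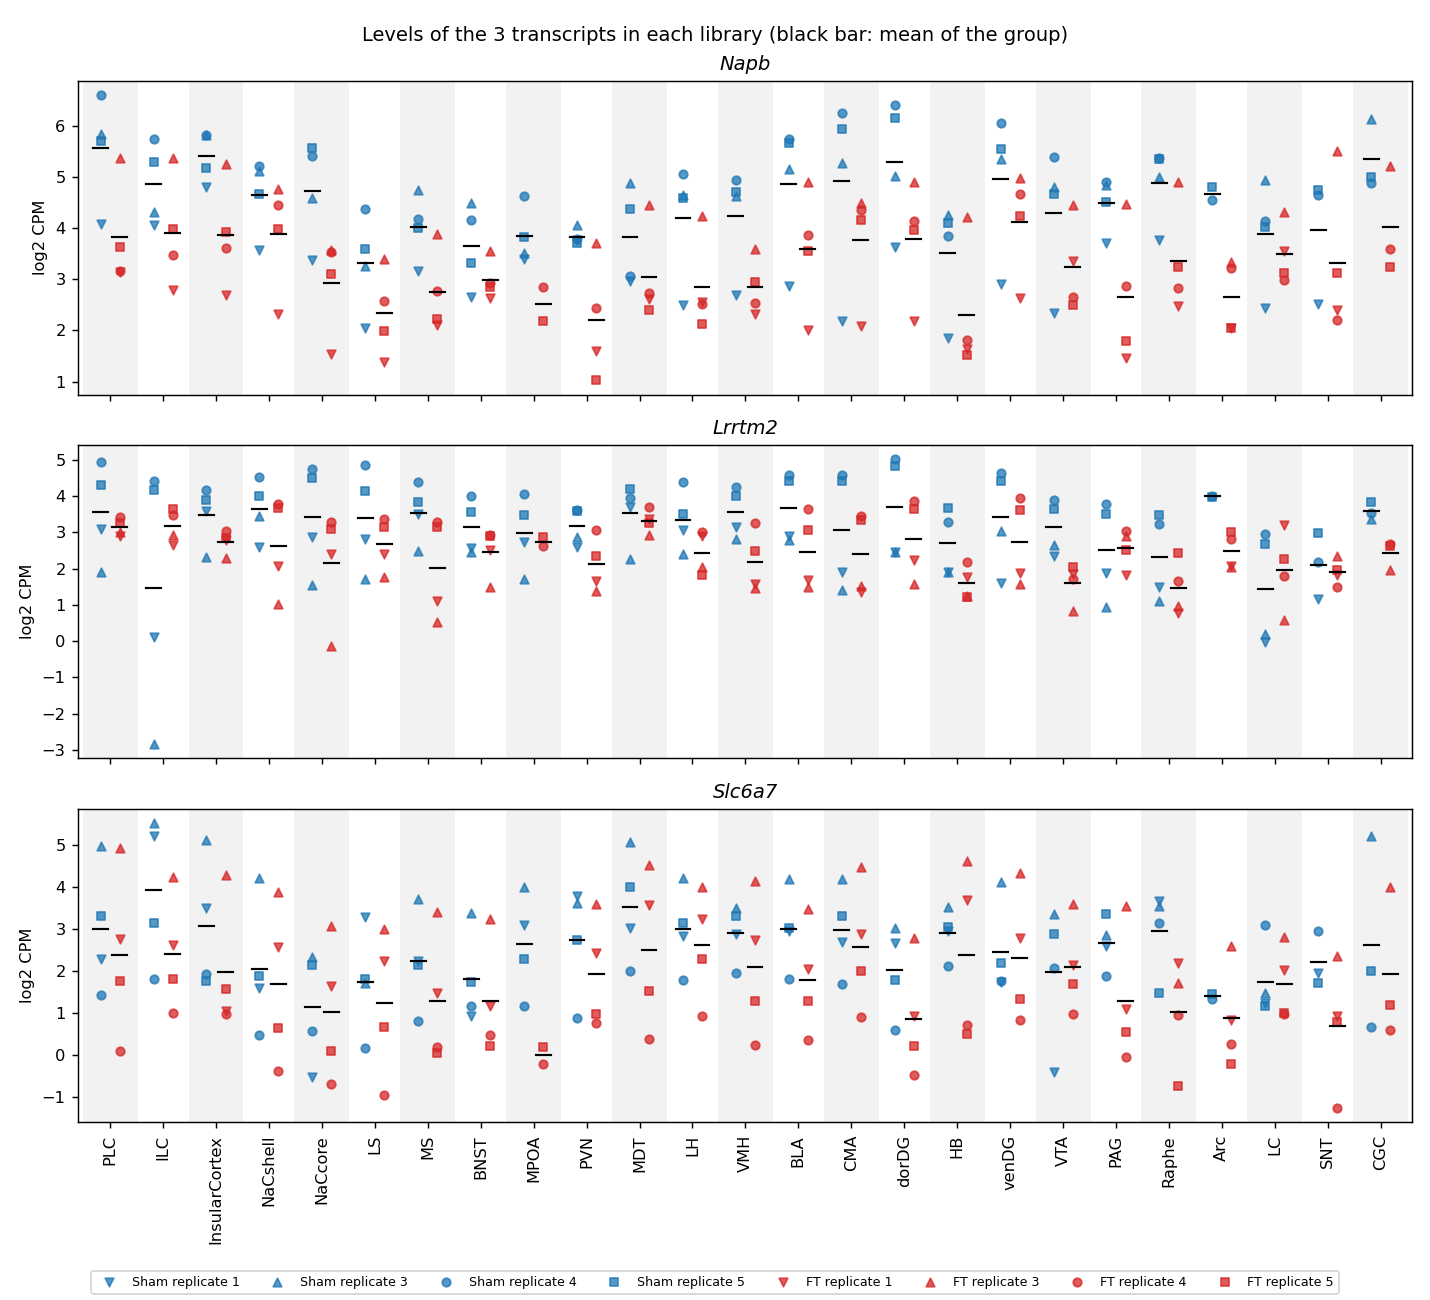
Level of Napb, Lrrtm2 and Slc6a7 in each library, in log2 CPM, by region on the horizontal axis, with Sham in blue on the left and FT in red on the right of each region. Marker shape gives the replicate number and the black bar is the group mean. For Napb and Lrrtm2 the circles and squares (replicates 4 and 5) of Sham stand above those of FT in each of the 25 regions.

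The 8 highest Sham means of Napb were those of cortex, dentate gyrus and amygdala, and the lowest was that of LS, preceded by HB, BNST and PVN. In cortex, Napb stood at 55.7 ± 32.7 CPM in Sham PLC against 17.7 ± 15.7 in FT, at 32.3 ± 17.4 against 18.7 ± 15.6 in ILC, at 44.1 ± 14.5 against 17.9 ± 14.0 in InsularCortex and at 43.9 ± 22.9 against 19.4 ± 15.2 in CGC (n = 3 each). In dentate gyrus and amygdala it was at 49.96 ± 33.6 in Sham and 16.7 ± 10.4 in FT dorDG, 40.1 ± 24.4 and 20.3 ± 10.8 in venDG, 36.6 ± 21.1 and 14.9 ± 10.8 in BLA, and 45.1 ± 31.2 and 16.1 ± 8.22 in CMA. The accumbens lay below these, with 30.8 ± 17.0 CPM in Sham and 8.57 ± 4.13 in FT NaCcore and 27.2 ± 11.4 and 17.4 ± 9.56 in NaCshell. Each of these regions had a lower mean in FT, and outside CGC, where replicate 1 was left out, the library of replicate 1 was the lowest of its group.

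Levels were mostly lower in the remaining regions. The hypothalamus held 25.5 ± 3.29 CPM of Napb in Sham Arc (n = 2) against 6.77 ± 3.23 in FT, 21.9 ± 11.7 against 8.56 ± 6.79 in LH, 21.9 ± 10.7 against 7.50 ± 3.12 in VMH and 15.0 ± 6.52 against 5.73 ± 1.92 in MPOA (n = 2 in FT). Midbrain and brainstem held 31.9 ± 13.003 CPM in Sham and 12.9 ± 11.4 in FT Raphe, 24.9 ± 15.2 and 10.9 ± 7.57 in VTA, 23.5 ± 7.71 and 8.80 ± 9.09 in PAG, 19.1 ± 11.7 (n = 3) and 15.9 ± 19.8 in SNT, and 17.3 ± 10.3 and 11.9 ± 5.54 in LC. The other regions were MS (17.4 ± 7.42 in Sham, 7.54 ± 4.93 in FT), MDT (16.4 ± 10.4 and 9.80 ± 7.92), PVN (14.2 ± 1.61 and 5.77 ± 5.03), BNST (14.1 ± 7.42 and 8.06 ± 2.43), HB (13.5 ± 6.95 and 6.86 ± 7.69) and LS (11.5 ± 6.86 and 5.63 ± 3.43). The Sham order thus ran from PLC to LS, but none of the 24 steps between neighbours in it exceeded the SD of the neighbouring groups, the largest step being 0.289 of that SD.

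Replicates 4 and 5 shared the regional order of Napb more closely than replicates 1 and 3. In Sham, the levels in replicates 4 and 5 correlated over the 25 regions with r = 0.84 and those of replicates 1 and 3 with r = 0.37 over 22 regions, correlations that share their regions and are given as a description. In replicates 4 and 5 dorDG was first, with 84.4 and 71.2 CPM, followed by PLC with 96.7 and 52.0 and CMA with 76.2 and 61.0. At the other end PVN held 13.7 and 12.9 CPM and BNST 17.7 and 9.87.

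Tested over the 25 Sham regions in 1 edgeR quasi-likelihood fit with the replicate number as a block, Napb differed between regions (adjusted p = 1.05e-08, fitted range 2.19 log2). Such a difference was called for 75.2% of the 17008 transcripts tested, so a regional difference as such is common. Napb was lower than in cortex in septum (log2 fold change -1.56 ± 0.24, SE, adjusted p = 1.53e-07), in thalamus and habenula (-1.49 ± 0.24, adjusted p = 2.99e-07), in hypothalamus (-1.09 ± 0.20, adjusted p = 4.02e-06) and in midbrain and brainstem (-0.89 ± 0.18, adjusted p = 1.62e-05). The accumbens was also lower, at -0.55 ± 0.23 (adjusted p = 0.0774), a call that was lost with replicates 4 and 5 alone (-0.34 ± 0.19, adjusted p = 0.246), without replicate 3 (-0.41, adjusted p = 0.337) and without replicate 4 (-0.57, adjusted p = 0.144). Calls in either direction were made for 37.3% of transcripts in septum, 43.7% in thalamus and habenula, 43.8% in hypothalamus, 56.0% in midbrain and brainstem and 24.2% in accumbens. Amygdala (-0.23 ± 0.22, adjusted p = 0.549) and dentate gyrus (-0.04 ± 0.22, adjusted p = 0.937) were not distinguished from cortex, against 19.2% and 25.3% of transcripts called there. In replicates 4 and 5 alone Napb was higher in dentate gyrus than in cortex, by 0.51 ± 0.19 (adjusted p = 0.0423). That setting was chosen after the data had been seen, and it called 33.0% of transcripts in dentate gyrus.

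The 3 lowest Sham means of Lrrtm2 were those of Raphe, SNT and LC. In cortex it was at 15.5 ± 12.0 CPM in Sham and 8.82 ± 1.46 in FT PLC, 12.3 ± 5.60 and 6.65 ± 1.36 in InsularCortex, 12.0 ± 1.92 and 5.33 ± 1.35 in CGC (n = 3 each), and 10.0 ± 11.1 and 9.26 ± 2.87 in ILC. In accumbens and septum it was at 14.8 ± 11.6 and 5.98 ± 3.96 in NaCcore, 13.9 ± 7.32 and 8.03 ± 5.90 in NaCshell, 14.1 ± 11.5 and 6.84 ± 3.21 in LS, and 12.9 ± 6.40 and 5.42 ± 4.37 in MS. The dentate gyrus and amygdala held 17.9 ± 14.5 in Sham and 8.55 ± 5.70 in FT dorDG, 14.3 ± 10.5 and 8.44 ± 6.25 in venDG, 14.7 ± 8.93 and 6.58 ± 4.57 in BLA, and 12.7 ± 11.2 and 6.46 ± 4.51 in CMA. Dorsal dentate gyrus had the highest Sham mean of all regions.

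Thalamus, habenula and hypothalamus lay between ranks 2 and 22 of the order. MDT held 12.7 ± 5.78 CPM of Lrrtm2 in Sham and 9.96 ± 2.24 in FT, and HB 7.42 ± 4.54 and 3.03 ± 1.04. Arc held 15.8 ± 0.181 in Sham (n = 2) and 5.73 ± 2.00 in FT, VMH 12.6 ± 5.70 and 5.09 ± 3.21, LH 11.3 ± 6.75 and 5.63 ± 2.25, and MPOA 9.29 ± 5.83 and 6.55 ± 0.799 (n = 2 in FT). BNST held 9.65 ± 4.99 and 5.78 ± 2.24 and PVN 9.27 ± 3.22 and 4.67 ± 2.60. Arc, with Sham libraries of replicates 4 and 5 only, was the second in the order of Sham means, and it ranked 15 of 25 when these replicates alone were used for every region. Midbrain and brainstem held 9.57 ± 4.79 CPM in Sham and 3.07 ± 1.01 in FT VTA, 7.51 ± 5.72 and 6.12 ± 2.07 in PAG, 6.25 ± 4.54 and 2.91 ± 1.69 in Raphe, 4.77 ± 2.86 (n = 3) and 3.71 ± 0.970 in SNT, and 3.94 ± 3.53 and 4.62 ± 3.30 in LC. No step between neighbours exceeded their SD, the largest being 0.390 of it.

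Lrrtm2 differed over the Sham regions (edgeR adjusted p = 7.73e-06, fitted range 2.18 log2). Midbrain and brainstem were lower than cortex, with a log2 fold change of -1.11 ± 0.18 (SE, adjusted p = 1.95e-07) over all replicates and -0.86 ± 0.12 (adjusted p = 6.08e-07) in replicates 4 and 5 alone. Without Raphe, LC and SNT the overall difference was not called (adjusted p = 0.139, fitted range 1.12), and the brainstem contrast, then of VTA and PAG, was -0.54 ± 0.23 (adjusted p = 0.0551). The other 6 contrasts with cortex were not called, from -0.24 ± 0.22 in thalamus and habenula (adjusted p = 0.422) to 0.22 ± 0.22 in dentate gyrus (adjusted p = 0.538). In replicates 4 and 5 alone, Lrrtm2 was higher in dentate gyrus by 0.58 ± 0.15 (adjusted p = 0.00464) and in amygdala by 0.36 ± 0.15 (adjusted p = 0.0962), and lower in thalamus and habenula, at -0.33 ± 0.16 (adjusted p = 0.0892), where it was also called without replicate 1 (-0.46, adjusted p = 0.0779). The setting of replicates 4 and 5 alone was chosen after the data had been seen. It called 33.0% of transcripts in dentate gyrus, 25.2% in amygdala and 49.3% in thalamus and habenula.

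Slc6a7 had the lowest median read number of the 3. In cortex it was at 23.8 ± 21.0 CPM in Sham and 7.52 ± 7.74 in FT ILC, 14.2 ± 20.1 and 6.51 ± 8.21 in CGC (n = 3 each), 13.2 ± 14.8 and 6.48 ± 8.56 in InsularCortex, and 12.1 ± 13.2 and 10.4 ± 13.7 in PLC. Thalamus, habenula and amygdala held 15.3 ± 13.1 and 9.62 ± 9.93 in MDT, 7.87 ± 2.99 and 10.0 ± 11.001 in HB, 9.37 ± 6.45 and 8.79 ± 9.27 in CMA, and 9.29 ± 6.27 and 4.65 ± 4.46 in BLA. In hypothalamus it was at 9.43 ± 6.52 and 7.94 ± 6.16 in LH, 7.997 ± 3.25 and 6.87 ± 7.54 in VMH, 7.84 ± 6.06 and 0.869 ± 0.189 in MPOA (n = 2 in FT), and 2.51 ± 0.143 (n = 2 in Sham) and 2.36 ± 2.44 in Arc. In each of the 4 cortical regions the Sham library of replicate 3 was the highest, from 31.4 CPM in PLC to 46.0 in ILC. The ILC value stands on 7 reads in a library of 543403 reads on transcripts, and ILC, which had the highest Sham mean, ranked 7 in replicates 4 and 5 alone.

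The remaining regions lay below the cortical regions and MDT in their Sham means. Midbrain and brainstem held 8.93 ± 4.51 in Sham and 2.46 ± 1.71 in FT Raphe, 6.71 ± 2.76 and 3.94 ± 5.11 in PAG, 5.53 ± 4.12 and 5.30 ± 4.55 in VTA, 4.88 ± 2.45 (n = 3) and 2.16 ± 2.00 in SNT, and 3.86 ± 3.04 and 3.64 ± 2.37 in LC. PVN held 8.49 ± 5.46 and 5.17 ± 4.87, BNST 4.37 ± 4.07 and 3.44 ± 3.97, MS 5.92 ± 4.97 and 3.77 ± 4.57, and LS 4.31 ± 3.77 and 3.57 ± 3.38. Dentate gyrus and accumbens held 7.08 ± 6.90 and 7.71 ± 8.52 in venDG, 4.75 ± 2.98 and 2.55 ± 2.88 in dorDG, 6.57 ± 8.04 and 5.65 ± 6.44 in NaCshell, and 2.79 ± 2.15 and 3.18 ± 3.60 in NaCcore. No neighbours in the Slc6a7 order differed beyond their SD, with a largest step of 0.486 of it. Over regions, Sham replicate 4 correlated with replicate 5 with r = 0.07 only (n = 25, a description). Replicate 5 held more Slc6a7 than replicate 4 in 21 of 25 Sham regions, and Raphe, LC and SNT, whose libraries numbered 4 best matched the number 5 elsewhere, were among the 4 exceptions.

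The overall difference of Slc6a7 over Sham regions was called (edgeR adjusted p = 0.0184, fitted range 2.75 log2) but not in replicates 4 and 5 alone (adjusted p = 0.126). Slc6a7 was lower than in cortex in accumbens (log2 fold change -1.59 ± 0.39, SE, adjusted p = 0.00107), septum (-1.09 ± 0.37, adjusted p = 0.0170), dentate gyrus (-1.08 ± 0.37, adjusted p = 0.0237) and hypothalamus (-0.66 ± 0.31, adjusted p = 0.0795). Amygdala (-0.35 ± 0.35, adjusted p = 0.578) and thalamus and habenula (-0.02 ± 0.35, adjusted p = 0.975) were not called, the latter being higher than cortex in replicates 4 and 5 alone (0.85 ± 0.41, adjusted p = 0.0927). None of the 4 calls of a lower level was made in replicates 4 and 5 alone, with -0.78 ± 0.45 in accumbens, -0.78 ± 0.45 in septum, -0.48 ± 0.43 in dentate gyrus and 0.04 ± 0.35 in hypothalamus. The septum call was also lost without replicate 3 (-0.64, adjusted p = 0.294), as was the dentate gyrus call (-0.72, adjusted p = 0.283), and the hypothalamus call was lost without replicate 1 (adjusted p = 0.168), replicate 3 (adjusted p = 0.615) or replicate 5 (adjusted p = 0.102). It was also lost without the 3 Sham libraries of ILC and VTA named above (-0.43 ± 0.31, adjusted p = 0.284). Midbrain and brainstem differed from cortex by -0.50 ± 0.29 (adjusted p = 0.133) over all replicates and by 0.69 ± 0.34 (adjusted p = 0.0733) in replicates 4 and 5 alone, a change of sign. Without replicate 4 it was called lower, at -1.38 (adjusted p = 0.000111). The setting of replicates 4 and 5 alone was chosen after the data had been seen. It called 49.3% of transcripts in thalamus and habenula and 62.4% in midbrain and brainstem.

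**Figure D2:**
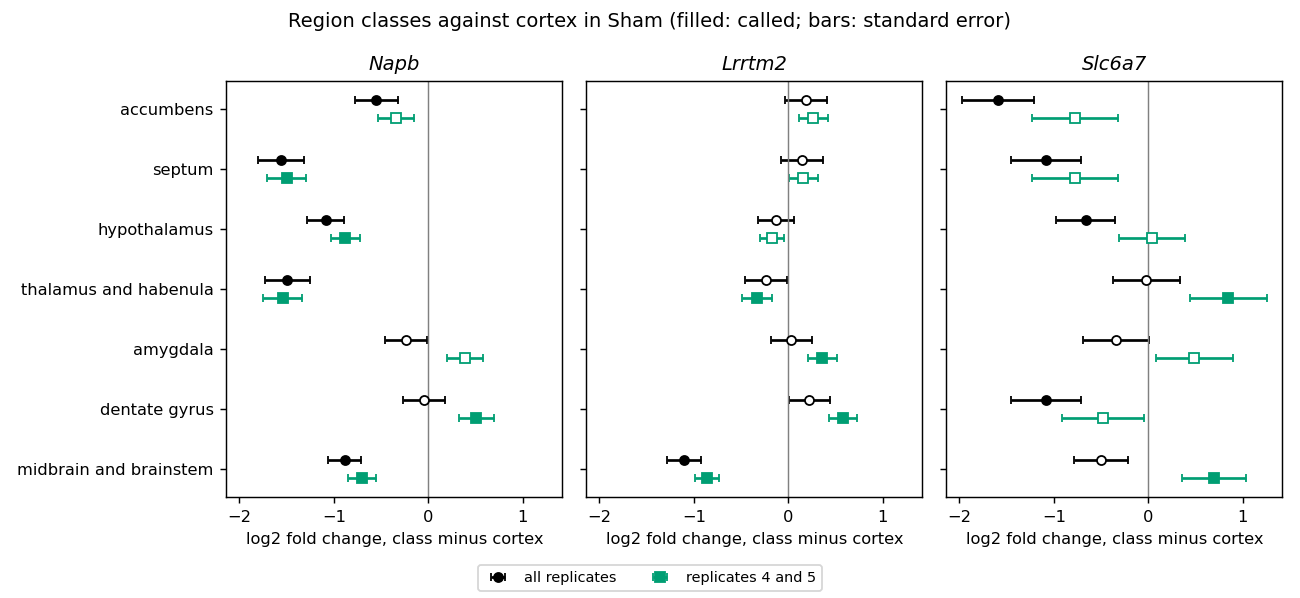
Log2 fold change of each region class against cortex in Sham for the 3 transcripts, from edgeR fits with the replicate number as a block. Circles are the fit to all replicates, squares the fit to replicates 4 and 5 alone, bars are 1 SE on each side, and filled markers were called. The value for Napb is -1.56 in septum and -1.49 in thalamus and habenula, that for Lrrtm2 -1.11 in midbrain and brainstem, and for Slc6a7 the fits lie on opposite sides of 0 in midbrain and brainstem, at -0.50 and 0.69.

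FT libraries mostly held less of all 3 transcripts than Sham libraries of the same region and number. In bulk tissue, fewer cells of a type and less RNA per cell cannot be told apart. Fitted region by region with edgeR, the log2 fold change (log2FC) of FT against Sham was below 0 for Napb in 25 of 25 regions. It ran from -2.02 ± 0.35 (SE) in Arc to -0.41 ± 0.40 in LC, and its median was -1.34. For Lrrtm2 it was below 0 in 23 of 25, with a median of -0.92, a lowest value of -1.65 ± 0.35 in VTA and positive values of 0.16 ± 0.61 in ILC and 0.41 ± 0.80 in LC. For Slc6a7 it was below 0 in 25 of 25, from -1.99 ± 0.30 in Raphe to -0.09 ± 0.59 in LC, around a median of -0.80. All 3 passed the filter on low counts in all 25 regions. Of 11448 transcripts that passed it in every region, 340 (2.97%) had a log2FC below 0 in all 25, and the medians of Napb, Lrrtm2 and Slc6a7 lay below those of all but 0.201%, 0.804% and 1.59% of them. These positions follow from how the members were picked and support nothing.

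Calls by region were few for edgeR. A call required an absolute log2FC of 0.32 or more together with an adjusted p (Benjamini-Hochberg) no higher than 0.1. Napb was called lower in 5 regions (CGC, NaCcore, MPOA, Raphe and Arc), Slc6a7 in 3 (MPOA, Raphe and Arc) and Lrrtm2 in 2 (MPOA and Arc). Over all transcripts and regions, 0.825% of tests were called lower. By region, edgeR called 1563 of 14464 transcripts lower in Arc, 706 of 14886 in MPOA and 441 of 12550 in Raphe. It called 10 of 13125 lower in CGC and 20 of 13120 in NaCcore. With DESeq2, which called 0.802% of its tests lower, the counts were 17 regions for Napb and 5 each for Lrrtm2 and Slc6a7. Nothing is read from these counts, since the same contrast chose the transcripts.

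Lrrtm2 and Slc6a7, like Napb, were called in MPOA and Arc. In MPOA, Sham Napb was at 10.3, 11.3, 24.5 and 14.0 CPM in replicates 1, 3, 4 and 5 and FT Napb at 7.09 and 4.38 in replicates 4 and 5. Slc6a7 was at 8.46, 16.1, 2.10 and 4.76 CPM in Sham MPOA and 0.735 and 1.00 in FT. Neither overlapped between treatments. Lrrtm2 in MPOA, at 6.49, 3.11, 16.6 and 10.98 CPM in Sham and 5.99 and 7.12 in FT, overlapped over all libraries and separated only within replicates 4 and 5. In Arc, Sham held 23.2 and 27.9 CPM of Napb and 15.9 and 15.7 of Lrrtm2 in replicates 4 and 5. FT Arc held 4.01, 9.96, 9.14 and 3.97 CPM of Napb and 4.10, 3.98, 6.90 and 7.93 of Lrrtm2 in replicates 1, 3, 4 and 5, below both Sham libraries. Slc6a7 in Arc was at 2.41 and 2.61 CPM in Sham and at 1.66, 5.97, 1.07 and 0.721 in FT, where replicate 3 lay above both Sham libraries. Both regions lack FT or Sham samples of replicates 1 and 3, so only replicates 4 and 5 form pairs there.

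Over all libraries, FT and Sham did not overlap for Napb in 2 regions (MPOA and Arc), for Lrrtm2 in 3 (CGC, VTA and Arc) and for Slc6a7 in 1 (MPOA), with FT below in each. Such a separation, FT below Sham, was found for 1.97% of all transcript and region combinations. Within replicates 4 and 5 both FT libraries were below both Sham libraries for Napb and for Lrrtm2 in 25 of 25 regions and for Slc6a7 in 18 of 25, against 22.8% of all combinations.

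The dorsal dentate gyrus and the raphe, where serotonin neurons lie, show the values of single libraries. In dorDG, Napb was at 12.2, 32.1, 84.4 and 71.2 CPM in Sham replicates 1, 3, 4 and 5 and at 4.38, 29.8, 17.4 and 15.4 in FT, so that replicate 3 was nearly level and replicates 4 and 5 far apart. Lrrtm2 in dorDG was at 5.36, 5.35, 32.3 and 28.5 CPM in Sham and at 4.54, 2.87, 14.5 and 12.3 in FT. Slc6a7 in dorDG was at 6.29, 8.03, 1.37 and 3.32 CPM in Sham and at 1.78, 6.81, 0.588 and 1.03 in FT. The high Sham libraries were thus those of replicates 4 and 5 for Napb and Lrrtm2 and those of replicates 1 and 3 for Slc6a7.

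In Raphe, Napb was at 13.5, 32.0, 41.4 and 40.8 CPM in Sham and at 5.43, 29.7, 6.95 and 9.34 in FT. Slc6a7 in Raphe was at 12.7, 11.7, 8.72 and 2.66 CPM in Sham and at 4.42, 3.15, 1.80 and 0.463 in FT, lower in each of the 4 pairs. Lrrtm2 in Raphe was at 2.70, 2.03, 9.30 and 10.95 CPM in Sham and at 1.58, 1.80, 2.996 and 5.27 in FT. Here all 3 transcripts were lower in FT in every pair, although the groups overlapped. The replicate 3 pair of Lrrtm2 stands on 8 reads in Sham and 4 in FT.

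Prelimbic cortex had the highest mean level of Napb in Sham. Napb in PLC was at 16.9, 57.3, 96.7 and 52.0 CPM in Sham and at 8.64, 41.1, 8.75 and 12.3 in FT. Slc6a7 in PLC was at 4.76, 31.4, 2.56 and 9.87 CPM in Sham and at 6.66, 30.6, 0.938 and 3.28 in FT, with no lower value in FT replicate 1. Lrrtm2 in PLC was at 8.37, 3.64, 30.5 and 19.5 CPM in Sham and at 7.30, 7.97, 10.5 and 9.47 in FT, higher in FT in replicate 3.

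The exceptions lay in ILC and LC. Lrrtm2 in ILC was at 0.948, 0, 21.4 and 17.8 CPM in Sham, where the first 2 values stand on 4 and 0 reads, and at 6.20, 7.54, 10.99 and 12.3 in FT. In LC it was at 0.844, 1.00, 7.64 and 6.26 CPM in Sham and at 9.14, 1.37, 3.31 and 4.65 in FT. Napb in LC was at 5.29, 30.5, 17.4 and 16.2 CPM in Sham and at 11.6, 19.9, 7.80 and 8.53 in FT. In both regions the CPM of Lrrtm2 was higher in FT in replicates 1 and 3 and lower in FT in replicates 4 and 5. In LC replicate 3 the values stand on 3 reads in Sham and 2 in FT, too few for a direction. Sham LC replicate 1 held 15 reads.

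The FT to Sham ratio of the same region and replicate number depended on that number. For Napb the median log2 ratio was -0.77 in replicate 1, -0.39 in replicate 3, -1.88 in replicate 4 and -1.78 in replicate 5, with FT lower in 19 of 22, 20 of 22, 25 of 25 and 25 of 25 regions. For Lrrtm2 the medians were -0.38, -0.76, -1.12 and -1.03, with FT lower in 18 of 22, 15 of 22, 25 of 25 and 25 of 25. For Slc6a7 they were 0.03, -0.09, -1.09 and -1.55, with FT lower in 11 of 22, 13 of 22, 25 of 25 and 25 of 25. The replicate 3 ratios of Lrrtm2 rest on few reads, 0 to 41 per Sham library and 2 to 32 per FT library, with an FT median of 9.5. The replicate 4 ratios of Slc6a7 rest on 2 to 41 reads per FT library. The medians over all transcripts lay between -0.02 and 0 in each replicate number. Slc6a7 was thus lower in FT in every region in replicates 4 and 5 and lower in 11 and 13 of 22 in replicates 1 and 3. Of 94 pairs in all, FT was lower in 89 for Napb, 83 for Lrrtm2 and 74 for Slc6a7. Among the 21 regions with 4 pairs, FT was lower in all 4 in 16 for Napb, 13 for Lrrtm2 and 7 for Slc6a7.

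**Figure D3:**
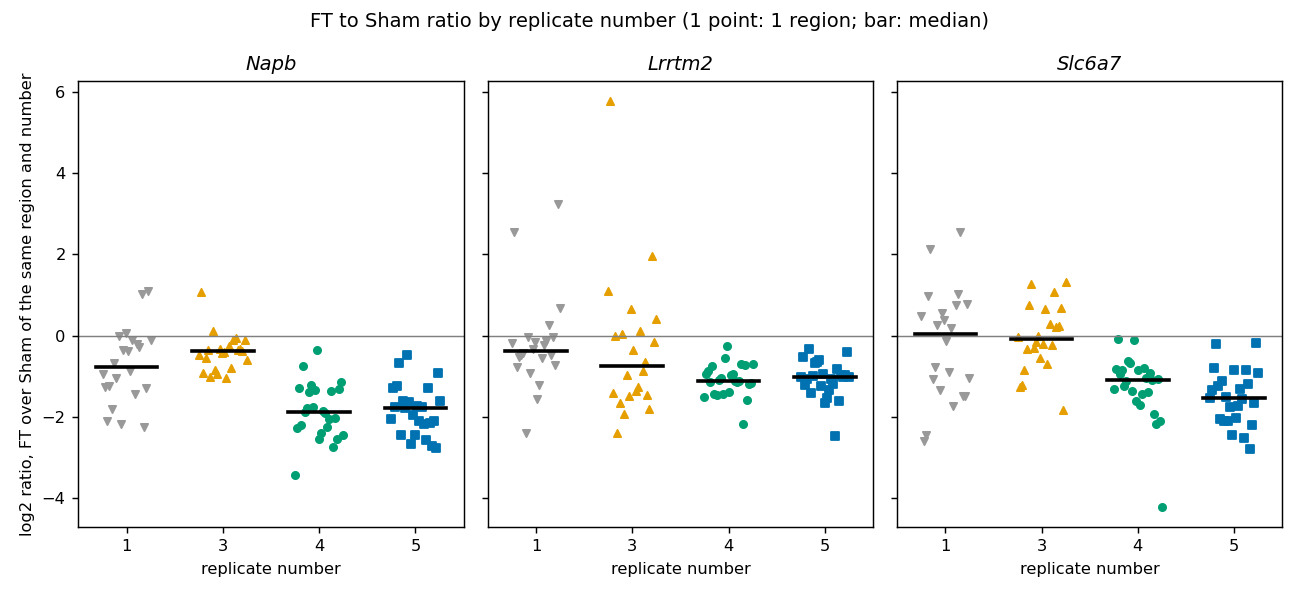
Log2 ratio of FT over Sham for each region, by replicate number on the horizontal axis, with the median as a black bar. Each point is 1 region, 22 in replicates 1 and 3 and 25 in replicates 4 and 5. All points of replicates 4 and 5 lie below 0 for the 3 transcripts, while the medians of Slc6a7 in replicates 1 and 3 are 0.03 and -0.09.

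Over the 21 regions with 4 pairs, the replicate number took 46.6% of the sum of squares of the Napb ratios, the region 16.9% and the remainder 36.5%. For Slc6a7 these shares were 34.8%, 21.8% and 43.4%, and for Lrrtm2 12.6%, 38.4% and 49.0%. The median transcript had 11.7% for the replicate number, 24.8% for the region and 60.5% for the remainder. A share grows with the number of groups by itself, here 21 regions against 4 replicate numbers, so replicate and region shares are not compared. Beside the median transcript, the replicate share was larger for Napb and Slc6a7 and near it for Lrrtm2. The region share was larger than that of the median transcript for Lrrtm2, whose ratios include 5.78 in ILC replicate 3, on 0 Sham reads.

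The levels behind these ratios moved in Sham as well as in FT. In Sham, Lrrtm2 was higher in replicates 4 and 5 than in 1 and 3 by a median of 1.61 log2 over 22 regions, in 22 of 22, and Napb by 1.07, in 20 of 22. In FT the same differences were 0.91 for Lrrtm2, in 21 of 23 regions, and -0.36 for Napb, higher in 6 of 23. For Napb these differences average unlike replicates and are no shift of replicates 4 and 5 against both 1 and 3. Its median Sham level was 7.62 CPM in replicate 1, against 28.76, 30.75 and 25.95 in replicates 3, 4 and 5. Its median FT level was 21.97 CPM in replicate 3, against 4.86, 7.48 and 8.41 in replicates 1, 4 and 5. Slc6a7 was lower in replicates 4 and 5 in both treatments, with median differences of -1.11 log2 in Sham and -2.07 in FT. The median transcript differed by 0.18 in both treatments.

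Measures of the libraries moved with the replicate number. The share of reads outside annotated transcripts was, at the median, 25.6% among Sham and 21.9% among FT libraries of replicate 1, 39.2% and 37.9% in replicate 3, 41.1% and 47.5% in replicate 4 and 46.9% and 43.1% in replicate 5. The median number of transcripts with a read was 17065.5 in Sham and 16154.5 in FT in replicate 1, 15520.0 and 15296.0 in replicate 3, 18933.0 and 18724.0 in replicate 4 and 19760.0 and 18298.0 in replicate 5. Their part in the members' ratios was not tested.

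Cell type markers were checked beside these ratios, as far as the study's list of changed transcripts names them, since the counts carry transcript identifiers without gene names. Of 10 neuron markers 2 are named, Tubb3 and Nefh, and their summed level ranged from 58.7 to 2859 CPM over Sham libraries and from 77.2 to 3210.0 over FT libraries. Its median FT to Sham log2 ratio was 0.10 in replicate 1, 0.29 in replicate 3, -0.17 in replicate 4 and -1.17 in replicate 5. The 4 of 6 GABAergic markers that are named (Gad2, Pvalb, Sst and Vip) ranged from 23.6 to 2140.0 CPM in Sham and from 25.7 to 1870.0 in FT, with ratios of -0.02, 0.44, -0.06 and 0.34. They did not move together, with a median log2FC over regions of -0.45 for Gad2, 0.16 for Pvalb, 0.41 for Sst and 0.13 for Vip. The 2 of 8 glutamatergic markers (Slc17a6 and Neurod1) ranged from 9.45 to 627 CPM and from 4.68 to 780.3, with ratios of -0.26, -0.33, -0.22 and -0.03. Tubb3 alone had median ratios of 0.25, 0.23, -0.42 and -1.50 and Nefh 0.34, 0.29, 0.32 and -0.06, and each had reads in every library.

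Glial markers moved in both directions in replicates 4 and 5. The 4 of 9 astrocyte markers (Gja1, Slc6a11, Slc7a10 and Kcnj10) ranged from 131 to 582 CPM in Sham and from 166 to 419.8 in FT, with median log2 ratios of 0.00, -0.15, -0.49 and -0.14 in replicates 1, 3, 4 and 5. The 3 of 10 oligodendrocyte markers (Opalin, Klk6 and Ermn) ranged from 49.5 to 1169 and from 54.0 to 1042, with ratios of -0.11, -0.12, -0.57 and -0.33. Olig2, 1 of 4 precursor markers, ranged from 3.21 to 35.6 and from 4.61 to 72.1, with ratios of 0.04, -0.21, 0.80 and 1.13. The 2 of 6 microglial markers (Cx3cr1 and C1qa) ranged from 16.4 to 89.3 and from 17.5 to 135, with ratios of 0.35, 0.38, -0.01 and -0.12. This sum hides opposite directions, with a median log2FC over regions of -0.62 for Cx3cr1 and 0.37 for C1qa. None of 5 endothelial markers was named. Kcnj10 was at 0 in 3 libraries and Neurod1, Vip, Slc7a10 and Cx3cr1 in 1 each. Within the astrocyte list the median log2FC over regions was -1.76 for the potassium channel Kcnj10 and 1.00 for the amino acid carrier Slc7a10, on opposite sides of 0. The part of cell composition in the members' ratios was not tested.

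The 3 transcripts did not share one pattern over regions. Over the 25 Sham region means, Napb and Lrrtm2 correlated with r = 0.24, Napb and Slc6a7 with r = 0.19 and Lrrtm2 and Slc6a7 with r = -0.21. In replicates 4 and 5 alone these values were 0.54, 0.06 and -0.26. The FT to Sham ratios of Napb and Lrrtm2 correlated over regions with r = 0.33, 0.65, 0.60 and 0.65 in replicates 1, 3, 4 and 5, those of Napb and Slc6a7 with r = 0.57, -0.22, 0.27 and 0.53, and those of Lrrtm2 and Slc6a7 with r = -0.02, -0.17, -0.05 and 0.26. All of these are descriptions, over regions whose values come from the same libraries.

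By the likeness of the mean log2 CPM over the 25 Sham regions, among 1845 transcripts with a name in the study's list, Napb was nearest to Tmem63c (r = 0.84), Fam212b (0.81), Glrx (0.81), Kpna1 (0.80) and Rock2 (0.80). In FT the same r was 0.47 for Tmem63c, 0.76 for Fam212b, 0.86 for Glrx, 0.48 for Kpna1 and 0.70 for Rock2. Lrrtm2 was nearest to Rbm7 (r = 0.88), Srsf3 (0.88), Snapc3 (0.86), ARL6 (0.84) and Rsl24d1 (0.84), with r in FT between 0.24 for Srsf3 and 0.61 for Rsl24d1. Slc6a7 had looser neighbours, Fzr1 (r = 0.69), Fam134a (0.64), Trim3 (0.64), Syngr1 (0.63) and Apba1 (0.62), with r in FT between 0.30 for Fam134a and 0.77 for Apba1. The neighbours come from a list chosen on the same libraries, and depth and replicate differences are shared by all points.

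The wider vesicle fusion machinery around Napb held genes on both sides of 0. Of 29 SNARE and vesicle genes listed, 14 have a named transcript, and in 350 tests over regions 12 were called lower in FT and 8 higher. Among all named transcripts 2.38% of 45606 tests were lower and 3.34% higher, and since the study chose those names on these samples, the counts are not independent evidence. Of the 14, 8 had a median log2FC below 0 and 6 above, and the median of the list was -0.21 against 0.29 for all named transcripts and 0.02 for all transcripts. Cplx2, complexin 2, which clamps and promotes SNARE-driven fusion, had a median of -1.03, Syngr1, a synaptic vesicle membrane protein, of -0.95, and Syt11, a synaptotagmin, of -0.74. Syp, synaptophysin, the abundant vesicle protein, had a median of 0.58 and a log2FC above 0 in 24 of 25 regions. Cplx2 had a replicate pattern like that of Napb, with median log2 ratios of -0.19, 0.26, -1.91 and -1.54 in replicates 1, 3, 4 and 5, while Syp had 0.72, 0.45, 0.45 and 0.65.

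Beside Lrrtm2, 8 of 25 listed synapse organizers and scaffold genes have a named transcript. In 200 tests 8 were called lower in FT and 4 higher, where 2.38% of tests on all named transcripts were lower and 3.34% higher. The median of the list was -0.32, with 5 of 8 genes below 0, against 0.29 for all named transcripts and 0.02 for all transcripts. As above, the names were chosen on these samples, so nothing is read from these counts. Its relative Lrrtm4 had a median log2FC of -1.14, below 0 in 24 of 25 regions, with replicate medians of -0.25, -0.42, -1.18 and -1.37. Dlg4, which encodes the postsynaptic scaffold PSD-95, had a median of -0.72, Flrt2, an adhesion protein, of -0.61, and Igsf21, an adhesion protein of inhibitory synapses, of 0.63. In Sham, Lrrtm4 was lower in midbrain and brainstem than in cortex by -1.60 ± 0.24 (SE, log2, edgeR adjusted p = 1.95e-08). Dlg4 was lower by -1.28 ± 0.26 (adjusted p = 1.49e-05), and both had the direction found for Lrrtm2. Of the 8 genes, 5 were called lower in this contrast and 1 higher, Grid1 (0.48 ± 0.22, adjusted p = 0.0554). Of all 17008 transcripts tested there, 4475 were called lower and 5056 higher.

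Of 21 carriers listed beside Slc6a7, 8 have a named transcript. In 178 tests 13 were called lower in FT and 2 higher, beside 2.38% lower and 3.34% higher among tests on all named transcripts. The median of the list was -0.47, with 7 of 8 genes below 0, against 0.29 for all named transcripts and 0.02 for all transcripts. These counts too are no independent evidence. Slc38a1, a glutamine carrier of neurons, had a median log2FC of -1.05, with replicate medians of 0.23, 0.10, -2.02 and -2.08. Slc6a11, the GABA transporter GAT3 of astrocytes, had -1.01, with -0.26, -0.09, -1.59 and -1.84. Slc38a5, another carrier of glutamine, had a median of 0.61, and Slc6a3, the dopamine transporter, passed the filter in 3 regions only, with a median of -3.41. As for Slc6a7, the ratios of Slc38a1 and Slc6a11 were near 0 in replicates 1 and 3 and low in replicates 4 and 5.

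**Figure D4:**
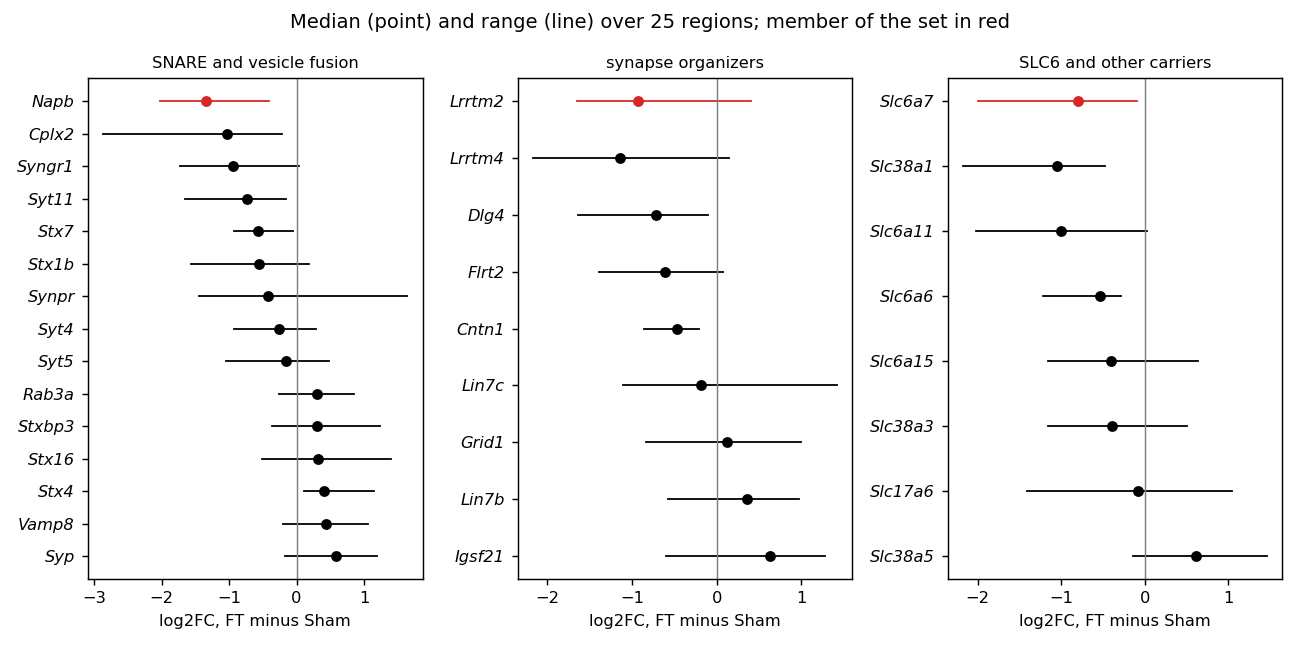
Median (point) and range (line) of the log2FC of FT against Sham over the 25 regions, for Napb, Lrrtm2 and Slc6a7 in red and for the named genes of the list beside each in black. Genes tested in fewer than 25 regions are left out. Each list spreads over both sides of 0, from -1.03 for Cplx2 to 0.58 for Syp among the vesicle genes.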

How the data were processed

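Each deposited file holds whole-number read counts per Ensembl transcript, which the authors made from total RNA libraries with STAR on the rn5 build and HTSeq (versions not given in the sources used here). Rows that name no transcript were left out of library sizes. The CPM values were computed here from the counts with TMM factors over 17302 transcripts, with a prior count of 2 for log2 CPM. FT was compared with Sham within each region, and region classes with cortex over all Sham libraries, with edgeR 4.0.16 quasi-likelihood tests (R 4.3.3), the low-count filter filterByExpr (minimum count 10, total 15), Benjamini-Hochberg adjustment over all transcripts tested and the replicate number as a block. SE is the log2 fold change divided by the root of its F statistic. The study used DESeq2 with the replicate number as a batch term, and DESeq2 1.42.0 was run here as an alternative. Same-numbered FT and Sham libraries deviated together, with every correlation over 0.1 in 23 of 25 regions (median 0.658). The exceptions were MPOA (r = -0.0035 and 0.253) and Arc (-0.0705 and 0.0200), each with 2 pairs. Pairing by number was therefore not borne out in MPOA and Arc. The study left out CGC replicates that its methods do not number. Here the CGC pair of replicate 1 and Sham SNT replicate 3 were left out. The scripts were tested on simulated data.

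The members and the gene lists were chosen with earlier results of these data known. Genes named beside the members were the 5 transcripts nearest to each, up to 4 genes of each list with the largest absolute median log2FC, and the cell type markers. Gene names came from the study's list of 1989 changed transcripts, of which 1845 carry a name, and columns of the study's own comparisons in it were not used. Promoters are from RefSeq (GRCr8), matched by symbol for 3 of 3 genes. The labels describe polyA RNA but a total RNA kit. dorCA1 and venCA1 were not analysed here. Alternatives were DESeq2, median-ratio size factors, no replicate block, no low-count filter, the libraries left out put back, each replicate left out, FT in place of Sham and, chosen after the data had been seen, replicates 4 and 5 alone, Raphe, LC and SNT left out, and 3 shallow or skewed Sham libraries left out. Nothing in the labels says that pools came from separate litters. The numbers of animals given by the study imply that regions of the same treatment and replicate number share animals, so the regions are not independent pools. The replicate block takes out what libraries of a number share. The p-values therefore measure the spread left between libraries after that, and not the spread between pools of animals.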

Additional observations from a re-analysis of the deposited data

Results flagged for a closer look

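Of 135 groups of 4 libraries, 13 held a library far from the other 3 of its group by Dixon's criterion, which chance meets in about 1 group in 20. For Napb these were 6 FT libraries, each of replicate 3, with 18.4 CPM in HB (the others up to 3.36), 18.7 in LH (up to 5.71), 21.7 in MDT (up to 6.46), 41.1 in PLC (up to 12.3), 29.7 in Raphe (up to 9.34) and 45.5 in SNT (up to 8.62). They stand on 49 to 165 reads.

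For Slc6a7, 6 libraries of replicate 3 stood above the others of their group. They held 9.36 CPM in FT BNST, 10.4 in Sham BNST, 19.3 in FT InsularCortex, 18.5 in Sham NaCshell, 11.6 in FT PAG and 17.4 in Sham venDG, on 22 to 85 reads. The remaining one was Sham LC replicate 4, with 8.41 CPM on 99 reads against 2.12 to 2.68 CPM in the others. No library of Lrrtm2 met the criterion. Replicate 3 also had the largest share of reads on its 50 most counted transcripts, and the part of this in these values was not tested.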

How the results depend on the processing

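Counts of regions in which a member was called lower in FT depended on the method. Napb had 5 with edgeR, 17 with DESeq2, 17 without the low-count filter and 0 without the replicate block, Lrrtm2 2, 5, 11 and 0, and Slc6a7 3, 5, 8 and 0. With each replicate left out the members' counts ranged from 0 to 9, 0 to 4 and 0 to 4. The calls over all transcripts moved too, as in SNT, from 0 of 12998 lower to 2313 of 13146 without replicate 1. The members' medians ranged from -1.67 to -1.004, -1.07 to -0.72 and -1.21 to -0.49, and the regions below 0 from 23 to 25, 20 to 25 and 20 to 25. Without replicate 4 or 5 MPOA and Arc could not be fitted, so 23 is every region fitted for Napb. Where a cause of a change below is not evident from fewer samples, the cause was not tested.

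For Napb against cortex in Sham, the accumbens value of -0.55 was no longer called without the replicate block (-0.58), with CGC replicate 1 kept (-0.50), in FT (-0.35), in replicates 4 and 5 alone (-0.34), without replicate 3 (-0.41) and without replicate 4 (-0.57). Leaving out replicates gave -0.73 to -0.41. The uncalled amygdala value turned to 0.39 in replicates 4 and 5 alone and 0.0908 without replicate 1 (range -0.55 to 0.0908), and the dentate value to 0.0532 without the block, 0.00802 with CGC replicate 1 kept, 0.20 in FT, 0.51 in replicates 4 and 5 alone, 0.18 without replicate 1 and 0.15 without replicate 3 (range -0.31 to 0.18).

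For Lrrtm2, FT in place of Sham gave -0.15 in accumbens, -0.33 in septum, -0.46 in hypothalamus (called) and -0.26 in amygdala. Amygdala was also below 0 with CGC replicate 1 kept (-0.0502), without the 3 low Sham libraries (-0.0645), without replicate 4 (-0.0588) and without replicate 5 (-0.13), with a range of -0.13 to 0.17. Replicates 4 and 5 alone added calls in thalamus and habenula (-0.33), amygdala (0.36) and dentate gyrus (0.58), and leaving out replicates gave -0.46 (called, without replicate 1) to -0.11 in thalamus and habenula. The overall difference was lost without the block (range 2.16) and without Raphe, LC and SNT (1.12).

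For Slc6a7, replicates 4 and 5 alone gave -0.78 in accumbens, -0.78 in septum, -0.48 in dentate gyrus, 0.0366 in hypothalamus, 0.85 in thalamus and habenula, 0.49 in amygdala, 0.69 in midbrain and brainstem and an overall range of 2.15. Without the 3 low Sham libraries hypothalamus was at -0.43 (not called) and thalamus and habenula at 0.20, which was 0.00662 with CGC replicate 1 kept and 0.31 in FT. Without the block dentate gyrus was at -1.35 and the overall range 2.99, neither called, and midbrain and brainstem was at -1.26, called, as in FT (-0.86) and with DESeq2 (-0.57). Leaving out replicates gave -1.34 to -0.64 in septum (call lost without replicate 3), -0.97 to -0.26 in hypothalamus (lost without replicate 1, 3 or 5), -1.32 to -0.72 in dentate gyrus (lost without replicate 3), -0.39 to 0.39 in thalamus and habenula (0.19 without replicate 1, 0.39 without replicate 3), -0.67 to 0.0505 in amygdala (0.0505 without replicate 3) and -1.38 to 0.11 in midbrain and brainstem (0.11 without replicate 3, called at -1.38 without replicate 4). The other 362 values kept their direction and side of the threshold or, for counts of regions, moved little.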
